A study of Homo sapiens with 3 samples.

Results

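The genes described here are 43 genes of the NRF2 antioxidant and glutathione system, chosen by name: the NRF2 regulators and the glutathione, thioredoxin, quinone and pentose phosphate genes they are known to act on. Of these, 40 were measured, by 79 of the 54675 probe sets of an Affymetrix array, among 19775 genes that had a probe set with a single gene symbol. MAFK, PRDX5 and FTH1 had none in the annotation used. The members were chosen with earlier results of these data known. The RNA was that of T47D, a long-established line of hormone receptor-positive human breast cancer cells. Every culture was first held for 4 h in medium with 10% fetal bovine serum from which charcoal had removed steroids. The groups were 3 h of 0.1% ethanol (the vehicle), 3 h of 1 uM estradiol (E2, the main natural estrogen) and 3 h of 1 uM tamoxifen (an antiestrogen in breast tissue that is used as a breast cancer drug). Each group was 1 array without a replicate, which leaves every difference without a p-value or an SD over samples. The results come from a single cell line in culture, and the labels do not say whether the estradiol and tamoxifen cultures also received ethanol.

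NRF2 (gene NFE2L2) is a transcription factor that KEAP1 holds in the cytoplasm and marks for degradation. Electrophiles and oxidants modify KEAP1, after which NRF2 accumulates, pairs with a small MAF protein (MAFF, MAFG or MAFK) and binds antioxidant response elements, while BACH1 competes for the same elements as a repressor. The targets make and recycle glutathione and thioredoxin, supply NADPH, detoxify quinones and drugs, degrade heme and store iron.

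The element can be looked for in the sequence before the transcription start. The RefSeq promoter table (GRCh38.p14, 250 bases before to 50 after each annotated start) held 34 of the 43 genes, with 52 starts. ABCC1, FTH1, GSR, GSS, HMOX1, MAFK, PRDX1, PRDX6 and SOD1 had no entry. The antioxidant response element core, TGACNNNGC on either strand, stood in 10 of the 52 windows (19.2%) and in 13.3% of all 35116 windows in the table. The longer element of NRF2 and MAF pairs, TGANTCAGC on either strand, stood in 2 of the 52 (3.85%) and in 1.36% of all windows. The patterns overlap where the longer element reads TGACTCAGC, as it does in GSTP1. A match describes letters and does not show that NRF2 binds there, and no match says only that these letters are not in this window.

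The 250 bases before the start are printed for members that the array results turn on, 5′ to 3′ on the strand of the gene, with matches to either pattern in capitals. OSGIN1, MAFF and EPHX1 were more than 2-fold lower on both treated arrays and hold a match, GCLM and GSTP1 hold a match and were among the 4 members that differed most between tamoxifen and estradiol, and CAT was the highest member and holds none. These windows were picked by array value. GPX3, at least 2-fold lower with estradiol, GPX4, at least 2-fold lower with tamoxifen, and PRDX3, at least 2-fold higher with estradiol, had entries and hold no match. TXNRD1, KEAP1, PGD, GGT1 and GPX2 hold a match and stayed below 2-fold against vehicle. The MAFF window shown belongs to 1 of 2 annotated starts, and the EPHX1 window to 1 of 3.
OSGIN1 (chr16:83952990-83953239, + strand): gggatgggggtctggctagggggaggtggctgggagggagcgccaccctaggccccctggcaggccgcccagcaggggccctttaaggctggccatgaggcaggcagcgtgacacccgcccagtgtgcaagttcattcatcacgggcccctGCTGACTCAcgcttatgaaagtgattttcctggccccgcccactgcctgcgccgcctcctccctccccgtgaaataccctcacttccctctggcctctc
MAFF (chr22:38201744-38201993, + strand): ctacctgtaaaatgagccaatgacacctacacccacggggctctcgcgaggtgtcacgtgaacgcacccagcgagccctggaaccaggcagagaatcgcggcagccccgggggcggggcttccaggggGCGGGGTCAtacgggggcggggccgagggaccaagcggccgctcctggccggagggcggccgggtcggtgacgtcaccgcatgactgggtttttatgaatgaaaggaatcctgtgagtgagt
EPHX1 (chr1:225825104-225825353, + strand): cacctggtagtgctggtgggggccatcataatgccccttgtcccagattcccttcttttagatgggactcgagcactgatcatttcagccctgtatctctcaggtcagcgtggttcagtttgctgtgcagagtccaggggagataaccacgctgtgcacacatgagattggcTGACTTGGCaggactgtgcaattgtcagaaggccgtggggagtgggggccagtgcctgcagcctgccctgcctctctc
GCLM (chr1:93909431-93909680, - strand): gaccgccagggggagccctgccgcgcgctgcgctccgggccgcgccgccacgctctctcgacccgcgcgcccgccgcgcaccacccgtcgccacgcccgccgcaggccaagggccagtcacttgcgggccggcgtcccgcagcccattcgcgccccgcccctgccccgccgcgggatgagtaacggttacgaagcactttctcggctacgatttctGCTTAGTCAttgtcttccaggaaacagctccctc
GSTP1 (chr11:67583562-67583811, + strand): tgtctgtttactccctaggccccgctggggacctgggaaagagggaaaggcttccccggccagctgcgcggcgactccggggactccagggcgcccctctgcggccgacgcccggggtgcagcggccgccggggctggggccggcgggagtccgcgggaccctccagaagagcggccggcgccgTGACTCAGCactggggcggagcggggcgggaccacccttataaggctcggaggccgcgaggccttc
CAT (chr11:34438684-34438933, + strand): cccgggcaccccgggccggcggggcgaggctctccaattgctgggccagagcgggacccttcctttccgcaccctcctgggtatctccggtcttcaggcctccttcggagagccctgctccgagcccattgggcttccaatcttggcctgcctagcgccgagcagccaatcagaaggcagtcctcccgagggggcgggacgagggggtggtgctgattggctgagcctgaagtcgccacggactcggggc
The longer element lies in OSGIN1 with its left base 99 bases before the start and in GSTP1 66 bases before it. The shorter core lies 122 bases before the start in MAFF, 78 in EPHX1 and 34 in GCLM.

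The deposited values are log2 expression values shifted by a constant for each probe set, so 0 is an unrecorded reference and not an absence of signal. How abundant a transcript was cannot be read from them, whereas the difference between arrays can. The value of a gene on an array is given below as its probe sets' median, as deposited. Differences were taken per probe set, their median was the difference of the gene, and the median of all genes (-0.0057 for estradiol and 0.10 for tamoxifen, each minus vehicle, and 0.11 for the treated arrays, tamoxifen minus estradiol) was subtracted. A gene with several probe sets therefore need not show exactly the difference of its array values. A gene was called different at 2-fold, a log2 difference of 1. In a bulk sample, fewer cells of a type and less RNA per cell cannot be told apart. Since levels were not kept, the identity of the cells could not be checked from their markers. Of 26 measured markers of luminal, basal, fibroblast, endothelial and white blood cells, 1 passed 2-fold against vehicle with either treatment, the luminal marker PGR.

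The vehicle array stood apart in control probe sets. Against vehicle, 18S ribosomal RNA (3 probe sets) had a median difference of 1.86 with estradiol and 1.96 with tamoxifen, 24 polyadenylated spike probe sets had medians of 0.70 and 0.49, and ACTB signal at the 3′ end less that at the 5′ end was -0.78 and -0.77 (log2, as deposited). Between tamoxifen and estradiol the same values were 0.043, -0.15 and 0.0058. Each comparison with vehicle below shares that array and stands beside these differences, whose part in the results was not tested.

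Estradiol and tamoxifen against vehicle gave the larger differences. At least 2-fold lower on both treated arrays were MAFF, a small MAF protein, OSGIN1, an oxidative stress-induced growth inhibitor, HMOX1, heme oxygenase, and EPHX1, microsomal epoxide hydrolase. Of other well-known NRF2 targets, NQO1, TXNRD1 and GCLC differed from vehicle by between -0.22 and 0.10. With the 3 arrays quantile normalized again, NQO1, TXNRD1 and GCLC lay between -0.46 and -0.12. Further targets were lower without reaching 2-fold: SRXN1 (-0.41 with estradiol and -0.48 with tamoxifen), FTL (-0.53 and -0.52) and SQSTM1 (-0.66 and -0.65). GCLM was at 0.034 with estradiol and -0.57 with tamoxifen. CAT, which encodes catalase, was the highest member on both, followed by PRDX3, the mitochondrial peroxiredoxin, with estradiol and by NFE2L2 itself with tamoxifen. With estradiol, 5 of 40 members (12.5%) were at least 2-fold lower, beside 1.68% of all genes, and 2 (5%) at least 2-fold higher, beside 1.62% of all genes. With tamoxifen, 5 of 40 (12.5%) were at least 2-fold lower, beside 1.79% of all genes, and 1 (2.5%) at least 2-fold higher, beside 1.65%. After the 3 arrays were quantile normalized again, 9 members were called lower with estradiol and 10 with tamoxifen. The calls gained were MAFG, SQSTM1, SRXN1 and AKR1C3 in both comparisons and GCLM and GPX3 with tamoxifen, where GPX4 (-0.96) was lost. That step gives the 3 arrays the same spread and so widens the vehicle array, the narrowest as deposited (SD 0.19 against 0.41 and 0.44). Larger differences for genes high on vehicle follow from the step itself, so these gains are not separate support. Over all 19775 genes the calls higher and lower numbered 321 and 333 with estradiol and 326 and 353 with tamoxifen. After renewed quantile normalization they numbered 352 and 598 with estradiol and 324 and 515 with tamoxifen. Without centring they numbered 428 and 217 with tamoxifen. The list median was -0.25 for estradiol and -0.37 for tamoxifen against 0 for all genes. Below 0 lay 31 members for estradiol and 30 for tamoxifen, 9 and 10 lying above. At the lower threshold of 1.5-fold, 9 members (22.5%) were lower with estradiol, beside 8.74% of all genes, and 3 (7.5%) higher, beside 6.42%. With tamoxifen, 10 (25%) were lower, beside 8.87%, and 3 (7.5%) higher, beside 6.35%, so that on the higher side the members lay close to all genes. Both comparisons use the same vehicle array, so their likeness is not an independent repeat.

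**Figure D1:**
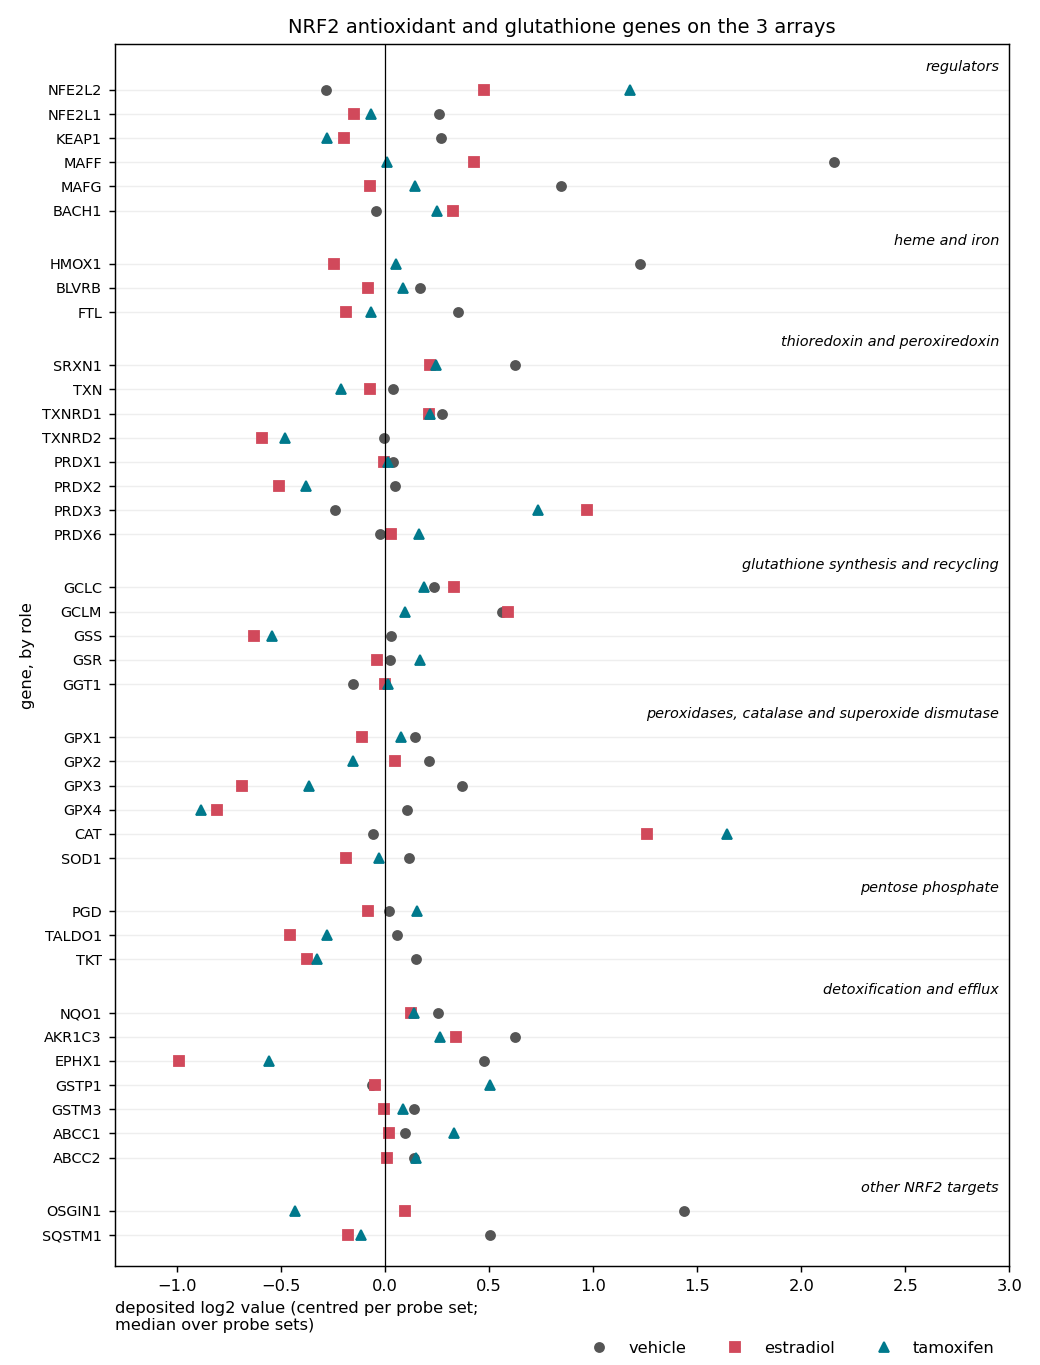
Deposited log2 value (x axis, centred per probe set, median per gene) of each of the 40 measured members on the vehicle (circle), estradiol (square) and tamoxifen (triangle) arrays, grouped by role. The vehicle circles of MAFF (2.16), OSGIN1 (1.44) and HMOX1 (1.23) lie far to the right of both treated arrays, while the treated symbols of CAT (1.26 and 1.64) lie to the right of its circle.

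Among the regulators, NFE2L2 and BACH1 were higher on the treated arrays, and KEAP1, NFE2L1, MAFG and MAFF lower. NFE2L2 had array values of -0.29 with vehicle, 0.47 with estradiol and 1.18 with tamoxifen. Vehicle was lowest and tamoxifen highest, and the differences from vehicle were 0.64 and 0.89. All 3 NFE2L2 probe sets were higher on both treated arrays, between 0.40 and 0.77 with estradiol and between 0.26 and 2.10 with tamoxifen. The difference with tamoxifen thus depends on the probe set: the one at 2.10 (1567013_at) read -0.29, 0.47 and 1.92 on the vehicle, estradiol and tamoxifen arrays, and the one at 0.26 (1567015_at) read -0.30, 0.097 and 0.061. As the difference of its array medians, NFE2L2 was called higher with tamoxifen (1.37), and after renewed quantile normalization its value was 0.51. KEAP1, measured by 1 probe set, read 0.27 with vehicle, -0.20 with estradiol and -0.28 with tamoxifen, differences of -0.46 and -0.65. BACH1 read -0.042, 0.32 and 0.25, differences of 0.37 and 0.45 (0.15 with tamoxifen after renewed quantile normalization), and its 3 probe sets were higher on both treated arrays (0.32 to 0.41 and 0.11 to 0.62). Of 3 further probe sets that carry BACH1 among several symbols, left out of its value, 2 lay below 0 with estradiol (-0.21 and -0.0049) and 1 with tamoxifen (-0.16). By the median of probe set differences, relative to all genes, neither NFE2L2, KEAP1 nor BACH1 was called in any comparison.

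The small MAF genes showed larger differences. MAFF had array values of 2.16 with vehicle, 0.43 with estradiol and 0.0073 with tamoxifen, so it was 3.31-fold lower with estradiol and 4.77-fold lower with tamoxifen, the 25th and the 10th lowest of 19775 genes. Its probe sets disagreed in size and not in direction. The probe set 36711_at read 3.87 with vehicle, the highest deposited value of all 54675 probe sets on that array, against 0.67 with estradiol and -0.058 with tamoxifen, differences of -3.19 and -4.03. The other, 205193_at, read 0.45, 0.18 and 0.073, differences of -0.26 and -0.48, and would not have been called. MAFG read 0.85 with vehicle, -0.072 with estradiol and 0.14 with tamoxifen, and its differences of -0.91 and -0.81 did not reach 2-fold as the median of 2 probe sets (-0.68 and -1.14 with estradiol, -0.54 and -1.08 with tamoxifen). After renewed quantile normalization MAFG was at -1.70 and -1.61. NFE2L1, an NRF2-related factor known for inducing proteasome genes, had differences of -0.36 and -0.39.

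OSGIN1 (1 probe set) read 1.44 with vehicle, 0.096 with estradiol and -0.43 with tamoxifen. It was 2.52-fold lower with estradiol and 3.93-fold lower with tamoxifen, the 75th and the 18th lowest gene. SQSTM1, the autophagy receptor p62, which is known to bind KEAP1, read 0.50, -0.18 and -0.12, and its differences of -0.66 and -0.65 were the medians of 5 probe sets that ran from -1.61 to 0.29 with estradiol and from -1.70 to 0.090 with tamoxifen. Of these 5 probe sets, 4 were lower on both treated arrays. SQSTM1 was at -1.21 and -1.19 after renewed quantile normalization and at -0.28 and -0.35 without the _s_at probe sets.

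In heme and iron handling, HMOX1, which opens the heme ring, read 1.23 with vehicle, -0.25 with estradiol and 0.051 with tamoxifen on its single probe set. It was 2.77-fold lower with estradiol and 2.43-fold lower with tamoxifen, the 48th and the 107th lowest gene. BLVRB, a biliverdin reductase, which acts after heme oxygenase, differed by -0.24 and -0.18. FTL, the ferritin light chain, differed by -0.53 and -0.52, with both of its probe sets, which carry the suffix _x_at and can match related transcripts, between -0.54 and -0.52. The 3 measured genes of this group were below 0 in both comparisons.

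The thioredoxin system was divided. PRDX3, the peroxiredoxin of mitochondria, read -0.24 with vehicle, 0.97 with estradiol and 0.74 with tamoxifen, 2.32-fold and 1.83-fold higher on the treated arrays. Its 2 probe sets gave 1.37 and 1.06 with estradiol, but 1.41 and 0.34 with tamoxifen. PRDX2, an abundant cytosolic peroxiredoxin, lay on the other side, with differences of -0.56 and -0.58, and each of its 4 probe sets was below 0 in both comparisons. TXNRD2, the mitochondrial thioredoxin reductase, had differences of -0.58 and -0.58 as the median of probe sets that read -1.18 and 0.015 with estradiol, and -1.14 and -0.013 with tamoxifen. SRXN1, sulfiredoxin, which repairs overoxidised peroxiredoxins, read 0.62, 0.21 and 0.24, differences of -0.41 and -0.48, or of -1.12 and -1.23 after renewed quantile normalization. TXN (thioredoxin), TXNRD1 (its cytosolic reductase), PRDX1 and PRDX6 differed from vehicle by between -0.35 and 0.082. Thus 1 of the 8 measured genes passed 2-fold, with estradiol, and none with tamoxifen.

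None of the 5 genes of glutathione synthesis and recycling passed 2-fold against vehicle. GSS, glutathione synthetase, had the lowest values, -0.65 and -0.68, with both probe sets below 0 in each comparison (-0.86 and -0.45 with estradiol, -0.80 and -0.56 with tamoxifen). GCLC and GCLM encode the catalytic and modifier subunits of glutamate-cysteine ligase, the rate-limiting step. GCLM read 0.56 with vehicle, 0.59 with estradiol and 0.095 with tamoxifen, so that tamoxifen was lowest. Its 3 probe sets ran from -1.07 to 0.71 with estradiol and from -1.55 to 0.39 with tamoxifen, a span wider than either difference. After renewed quantile normalization GCLM was at -0.71 with estradiol and at -1.22 with tamoxifen, where it was called. GCLC differed by 0.10 and -0.15, again with probe sets on both sides of 0. GSR, glutathione reductase, and GGT1, a gamma-glutamyltransferase that breaks down extracellular glutathione, differed by -0.056 to 0.16.

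Of the member enzymes that remove peroxide and superoxide, CAT differed most and in the opposite direction to the member glutathione peroxidases. CAT read -0.057 with vehicle, 1.26 with estradiol and 1.64 with tamoxifen, 2.49-fold and 3.02-fold higher, the 116th and the 51st highest gene. The 2 concordant probe sets (201432_at and 211922_s_at) gave 1.32 and 1.54 with estradiol and 1.60 and 1.80 with tamoxifen, whereas the third (215573_at) gave -0.46 and -0.14. Without the _s_at probe set CAT was at 0.43 and 0.72 and was not called. GPX3, the secreted glutathione peroxidase, read 0.37, -0.69 and -0.37, 2.07-fold lower with estradiol and 1.79-fold lower with tamoxifen, with both probe sets between -1.21 and -0.80. GPX4, which reduces lipid hydroperoxides and protects against ferroptosis, read 0.11, -0.81 and -0.89 on 1 probe set, 1.88-fold lower with estradiol and 2.14-fold lower with tamoxifen. Without centring on all genes its value with tamoxifen was -0.99, and after renewed quantile normalization -0.96, both short of 2-fold. GPX1, GPX2 and SOD1, the cytosolic superoxide dismutase, had differences between -0.46 and -0.16, so the 4 glutathione peroxidases among the members lay below 0 in both comparisons. Outside the members, GPX8 differed by -0.060 with estradiol and -0.054 with tamoxifen. GPX7 differed by -0.15 with estradiol and lay above 0 with tamoxifen (0.41).

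The pentose phosphate enzymes supply NADPH for glutathione and thioredoxin reductase. TKT (transketolase) and TALDO1 (transaldolase) differed from vehicle by -0.46 and -0.51 with estradiol and by -0.52 and -0.44 with tamoxifen. PGD, phosphogluconate dehydrogenase, had medians of -0.069 and 0.058, but its probe sets were split, one (201118_at) at -0.93 in both comparisons and the other two between -0.069 and 0.18. The 3 TKT probe sets ran from -1.14 to -0.21 with estradiol and from -1.18 to -0.22 with tamoxifen. None of the 3 genes passed 2-fold as a median, but TKT did in both comparisons (-1.14 and -1.18) when its _s_at and _x_at probe sets were left out.

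Among detoxification and efflux genes, EPHX1 read 0.48 with vehicle, -0.99 with estradiol and -0.56 with tamoxifen on 1 probe set, 2.75-fold and 2.20-fold lower, the 49th and the 190th lowest gene. NQO1, the quinone reductase often used as an NRF2 reporter gene, read 0.25, 0.13 and 0.14, differences of -0.12 and -0.22. Its 3 probe sets ran from -0.34 to 0.065 and from -0.34 to -0.17. NQO1 thus differed from vehicle by less than the spread of all genes (a scaled median absolute deviation of 0.33 and 0.36). After renewed quantile normalization, however, NQO1 was at -0.33 and -0.44. AKR1C3, an aldo-keto reductase that also reduces steroids, differed by -0.28 and -0.47, or by -1.01 and -1.21 after renewed quantile normalization. GSTP1, a glutathione transferase, read -0.063, -0.051 and 0.50, so that tamoxifen stood above vehicle and estradiol. GSTM3 (another glutathione transferase) and the efflux pumps ABCC1 and ABCC2 differed by between -0.16 and 0.13.

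**Figure D2:**
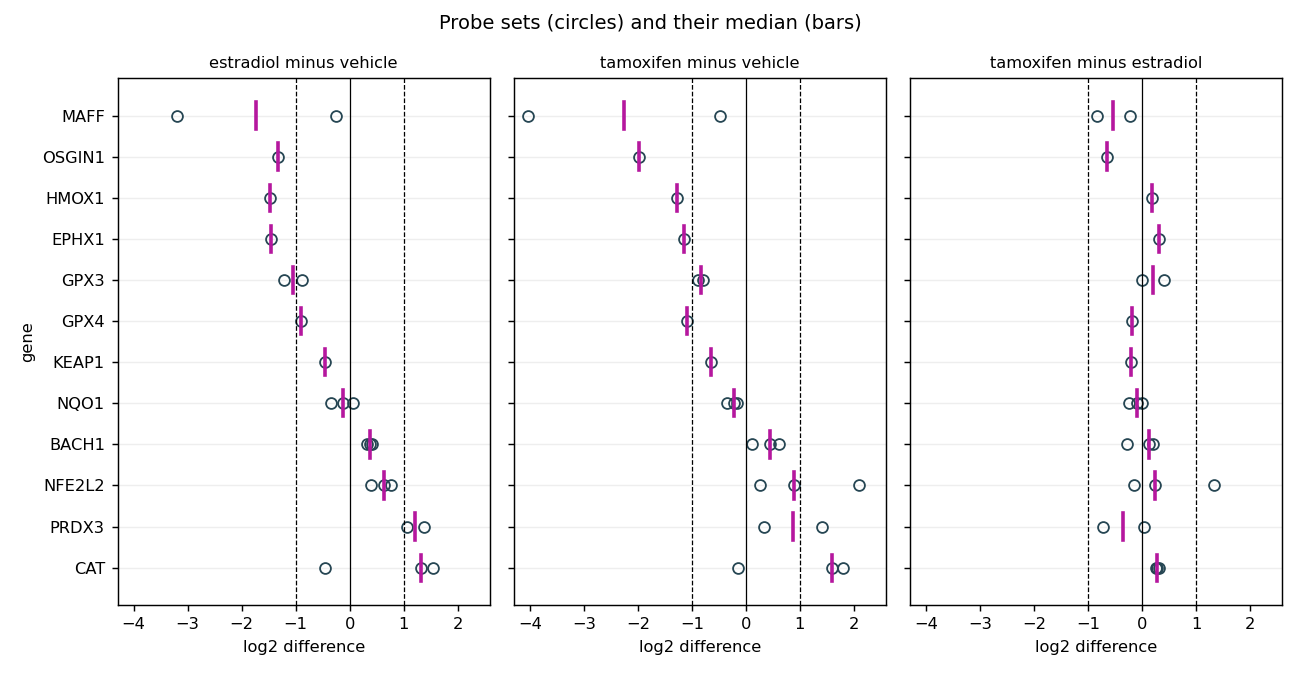
Log2 differences of the single probe sets (circles) and their median (bars) for 12 members in the 3 comparisons, relative to the median of all genes, with dashed lines at 2-fold. The 2 MAFF circles lie far apart (-3.19 and -0.26 with estradiol), and 1 CAT circle (-0.46) lies opposite to the other two.

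The members also differed in which array lay away from the deposited centre. On all probe sets the vehicle array was the narrowest, with an SD of 0.19 against 0.41 for estradiol and 0.44 for tamoxifen. After each array's median was subtracted, vehicle was the farthest of the 3 from the centre in 16 of 40 members (40%), beside 17.7% of all genes. These included MAFF, OSGIN1, HMOX1, MAFG, SRXN1, AKR1C3, SQSTM1 and FTL, in which vehicle was the high array. The others were NFE2L1, BLVRB, TXNRD1, GGT1, GPX1, NQO1, GSTM3 and ABCC2. They lay nearer the centre on vehicle, from -0.15 in GGT1 to 0.28 in TXNRD1. In GPX4, GSS, TXNRD2 and PRDX2 the treated arrays lay farther from the centre than vehicle, below it, and in CAT and PRDX3 above it. EPHX1 and GPX3 lay away from it on each array, vehicle above (0.48 and 0.37) and the treated arrays below (-0.97 and -0.64 for EPHX1, -0.67 and -0.45 for GPX3). Renewed quantile normalization gives the 3 arrays the same spread, and HMOX1 was then at -2.29 and -2.11 and OSGIN1 at -2.14 and -2.67 for estradiol and tamoxifen against vehicle. The centre is not recorded, so this describes the deposited values and does not say which culture was typical.

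Tamoxifen against estradiol is the comparison that does not use the vehicle array. None of the 40 members reached 2-fold, where 0.202% of all genes were at least 2-fold lower and 0.0253% at least 2-fold higher with tamoxifen, so that less than 1 call would correspond to these shares. Those were 5 genes higher and 40 lower, or 18 and 24 without centring. The list median was -0.0024, with 19 members above and 21 below 0. In the values as deposited the median was 0.11, since the all-gene median of 0.11 was then not subtracted, and 12 members changed side. OSGIN1 stood lowest at -0.65, 1.56-fold lower with tamoxifen and the 169th lowest of all genes. It was the single member (2.5%) past 1.5-fold in this comparison, beside 1.22% of all genes lower and 0.885% higher at that threshold. Without centring, and also after renewed quantile normalization, OSGIN1 was at -0.53 and did not pass it. MAFF followed at -0.53 with probe sets at -0.84 and -0.23, and GCLM at -0.49 with its 3 probe sets between -0.61 and -0.32. The probe sets of GCLM, which were on both sides of 0 against vehicle, were thus on the same side here. GSTP1 was the highest member at 0.44, 1.36-fold higher with tamoxifen on 1 probe set.

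PRDX3 read -0.35, with probe sets at 0.030 and -0.73. NFE2L2 read 0.24, and its probe set 1567013_at stood apart from the others at 1.33 against 0.24 and -0.15. CAT (0.27), EPHX1 (0.31), HMOX1 (0.18), GPX3 (0.20), GPX4 (-0.19), KEAP1 (-0.20), BACH1 (0.12) and NQO1 (-0.10) differed between tamoxifen and estradiol by at most 1.24-fold. Over 10523 genes with several probe sets, the median span was 0.36 in this comparison, 0.52 for estradiol and 0.59 for tamoxifen against vehicle. Each of the 8 differences just listed is within that span of 0.36. EPHX1, HMOX1, GPX4 and KEAP1 have 1 probe set each and so no span of their own, and the span holds no error between arrays.

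The 4 members that differed most between tamoxifen and estradiol, OSGIN1, MAFF, GCLM and GSTP1, each hold at least 1 of the motifs in a promoter window printed above, in GSTP1 with tamoxifen on the high side and in the other 3 on the low side. They were singled out after their values were seen. Other members with a match lay near 0 in the same comparison, PGD at 0.12, GGT1 at -0.10, TXNRD1 at -0.11 and KEAP1 at -0.20, or further out, GPX2 at -0.31 and EPHX1 at 0.31.

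**Figure D3:**
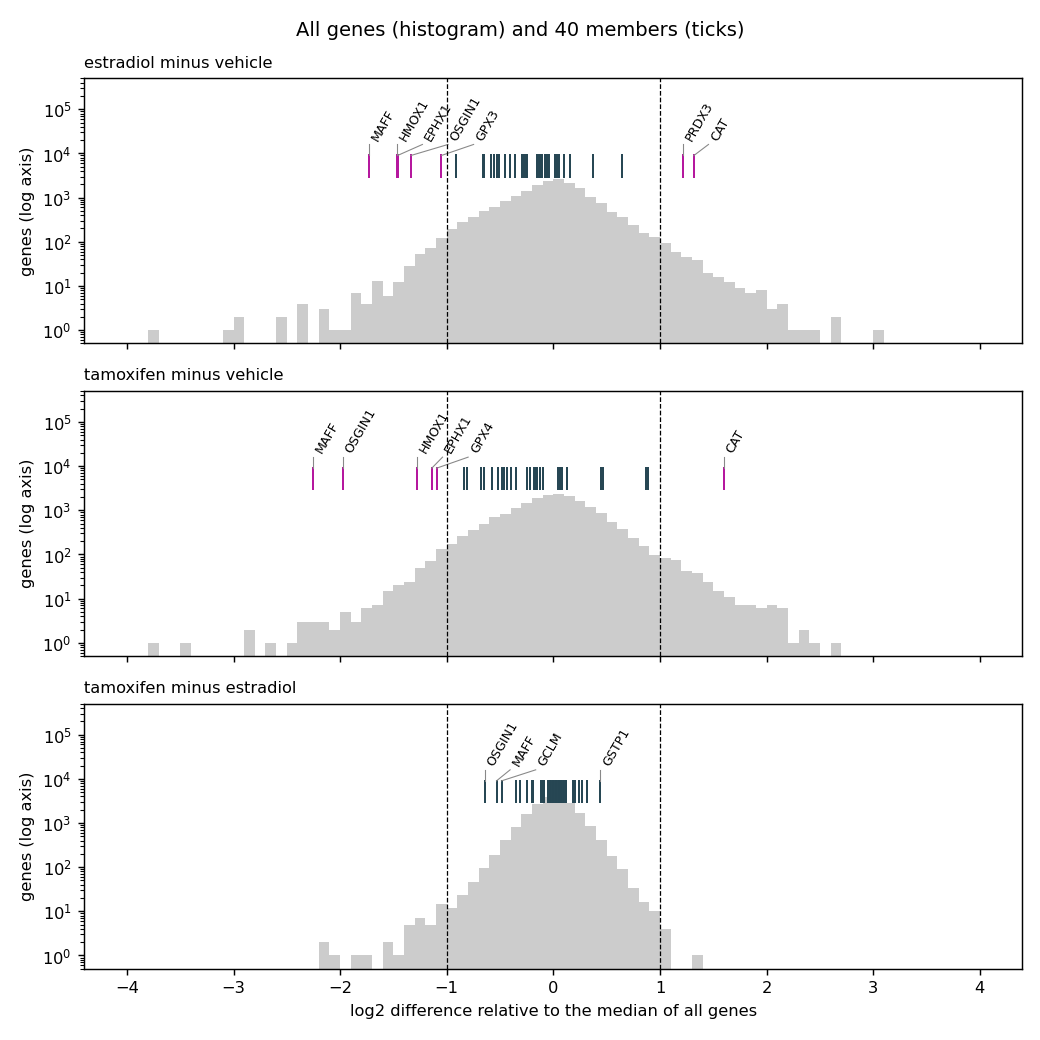
Histogram of the log2 difference of 19775 genes (y axis, number of genes, log scale) with a tick for each of the 40 members in the 3 comparisons, relative to the median of all genes, and dashed lines at 2-fold. Members are labelled from 2-fold in the comparisons with vehicle and from 0.4 (log2) in the comparison of tamoxifen with estradiol, where none passes a dashed line and OSGIN1 (-0.65) is lowest.

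A further list of 79 genes of the same pathways, which holds no member, gave 75 measured genes. It was chosen with earlier results of these data known, so its counts are not a separate check on those of the members. At least 2-fold lower were 8 (10.7%) with estradiol and 6 (8%) with tamoxifen, and none was at least 2-fold higher in either comparison, beside the shares of all genes given above. The largest difference was that of CHAC1. CHAC1, which degrades glutathione, read 3.63 with vehicle, -0.081 with estradiol and 0.031 with tamoxifen, differences of -3.70 and -3.70. SLC3A2 and SLC7A11, the chains of the cystine importer, had differences of -1.66 and -0.90 with estradiol and of -1.94 and -1.31 with tamoxifen. The 3 probe sets of SLC7A11 ran from -1.03 to 0.11 with estradiol and from -1.73 to 0.13 with tamoxifen. In the same group of 10 genes of cystine and glutathione supply, CTH, which makes cysteine from cystathionine, was higher with both treatments (0.72 and 0.60), as was CHAC2, a relative of CHAC1 (0.66 and 0.43). SESN2, a stress-induced sestrin, differed by -2.30 and -2.15. CHAC1, SLC3A2, SLC7A11 and SESN2, which were lower, and CTH, which was higher, are also known to be induced by ATF4, a factor of the amino acid stress response. The rest of the list, with the higher CHAC2, was not sorted by this trait, and a part of ATF4 was not tested. CCS, the copper chaperone of SOD1, differed by -1.08 and -1.11, and NFE2, a relative of NRF2 known from blood cells, by -1.11 and -1.11. SOD2, the mitochondrial superoxide dismutase (-1.04), CBS, which feeds cysteine synthesis (-1.08), and CBR3, a carbonyl reductase (-1.16), passed 2-fold with estradiol, and had -0.89, -0.93 and -0.84 with tamoxifen. Between tamoxifen and estradiol none of the 75 passed 2-fold. TXNIP, a thioredoxin inhibitor, had the highest value (0.58), and AKR1B10, an aldo-keto reductase, the lowest (-0.55).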

How the data were processed

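RNA of 3 T47D cultures, 1 per treatment, was measured on 1 array each, and groups were taken from the treatment labels. The authors deposited log2 values from RMA, per the submitters' processing notes (version not given). These lie on both sides of 0 in each array, so they were also centred for each probe set, a step the labels do not record. Log base 2 was taken from RMA. RMA compresses the differences of weakly hybridised probe sets, and signal level is unknown here, so the planned filter on low signal was not applied. Gene symbols came from the platform's annotation table, and the Entrez identifiers of all 40 measured members matched GRCh38.p14 gene records with the same symbol. Probe sets with several symbols were left out. Differences between arrays were taken per probe set in Python 3.11.15 with pandas 2.3.3, summarised by the median per gene and centred on the median of all 19775 genes. No test could be made on single arrays. The spread between the probe sets of a gene stands for technical error, and the number of arrays limits precision. The calculation was tested on simulated data. Members, lists and the pathway list were chosen with earlier results of these data known. All 43 members were to be named, 12 of them in full: those past 2-fold in a comparison or past 0.5 (log2) between tamoxifen and estradiol, and NFE2L2, KEAP1, BACH1 and NQO1. Of the other pathway genes, up to 8 past 2-fold per comparison were named, and TXNIP, AKR1B10, CTH, CHAC2, GPX7 and GPX8 were added after their values were seen. Alternatives were values without centring, probe sets without the suffix _s_at, _x_at or _a_at, the mean over probe sets, the difference of array medians, renewed quantile normalization and a 1.5-fold cutoff.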

Additional observations from a re-analysis of the deposited data

Results flagged for a closer look

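A probe set with the symbols of NFE2L2 and CSNK2A1 (1567014_s_at), which was left out of every gene value because its signal cannot be assigned to either gene, read -0.078 with vehicle, 0.94 with estradiol and 1.33 with tamoxifen. It drew attention as a difference in unused data: 1.02 for estradiol minus vehicle and 1.30 for tamoxifen minus vehicle, relative to the median of all genes. Between tamoxifen and estradiol it differed by 0.27. The 3 other probe sets left out for several symbols carried BACH1 and stayed below 2-fold in each comparison, from -0.21 to 0.54 with estradiol and from -0.16 to 0.44 with tamoxifen, relative to vehicle.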

How the results depend on the processing

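No paired analysis was possible because each group has 1 array. No member past 2-fold changed direction under any alternative. Without the probe sets with the suffix _s_at, _x_at or _a_at, 33 members remained and CAT had values of 0.43 with estradiol and 0.72 with tamoxifen, so members at least 2-fold higher numbered 1 and 0, and TKT was called lower in both comparisons with vehicle. Of the other pathway genes 56 remained, and 4 were called lower with estradiol and 3 with tamoxifen. Of all genes that remained, 298 and 331 were called lower. With the mean over probe sets, CAT (0.80) was lost with estradiol, which left 1 member called higher, and NFE2L2 was gained with tamoxifen (1.08), which gave 2. The difference of array medians also gave 2 (NFE2L2 at 1.37). The mean over probe sets and the values as deposited each called 1 other pathway gene higher with tamoxifen. Without centring the member median was -0.27 for tamoxifen against vehicle and 0.11 against estradiol, and GPX4 (-0.99) was lost with tamoxifen, while the genes called higher and lower with tamoxifen went from 326 and 353 to 428 and 217. Renewed quantile normalization gave 9 members called lower with estradiol (median -0.37) and 10 with tamoxifen, and 10 other pathway genes lower with tamoxifen. Over all genes, those called lower then went from 333 to 598 with estradiol and from 353 to 515 with tamoxifen. That step widens the values of the vehicle array, the narrowest of the 3 as deposited. At 1.5-fold, members called lower numbered 9, 10 and 1 for estradiol and tamoxifen against vehicle and tamoxifen against estradiol, and members called higher with tamoxifen 3. Of the 75 other pathway genes, 4 (5.33%) were then higher and 14 (18.7%) lower with estradiol, beside 6.42% and 8.74% of all genes. With tamoxifen 5 (6.67%) were higher and 17 (22.7%) lower, beside 6.35% and 8.87%. On the higher side these shares lay close to those of all genes. A filter on low signal was not run, since the values hold no levels, and signal over background is unknown for every member.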
